A study of Mus musculus with 19 samples.

Results

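The genes of MHC class I and of peptide loading were read on 19 microarrays of mouse thymocytes. The set holds 10 genes, chosen by gene symbol: the classical heavy chains H2-K1 and H2-D1, the T-region heavy chains H2-T10, H2-T22, H2-T23 and H2-T24, the light chain B2m, the peptide transporter subunits Tap1 and Tap2, and the class I transactivator Nlrc5. Of these 10 genes, 8 had a probe set annotated to them alone, among 22180 such genes on the array, and these 8 are described. H2-D1 was annotated together with H2-Q2 on its probe set and H2-T22 together with H2-T9, so neither has a value here. All lie on chromosome 17 except B2m on chromosome 2 and Nlrc5 on chromosome 8. RefSeq (assembly GRCm38.p6, the C57BL/6J genome) lists H2-T10 as a transcribed pseudogene and the other 9 as protein coding.

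The thymocytes came from C57BL/6 mice and were sorted by flow cytometry. Rptor-/- cells came from mice with loxP-flanked Rptor crossed to a CD2-cre line, in which Cre is driven from CD2 regulatory sequence in lymphocytes; WT cells came from mice that the labels name only as WT, without saying whether they carried Cre. Rptor encodes Raptor, the subunit that defines the growth-regulating kinase complex mTORC1. ISP cells (immature, CD4- CD8+ TCRβ-) had 3 Rptor-/- and 4 WT arrays. DN3a cells (CD4- CD8- TCRγδ- TCRβ- CD25hi CD44- CD28-) had 3 Rptor-/- and 3 WT arrays, and γδ T cells (CD4- CD8- TCRβ- NK1.1- Gr1-) also had 3 of each. The γδ gate as written holds no positive γδ receptor stain. Whether the arrays of a group stand for different mice is not in the labels, and p-values accordingly reflect only sample-to-sample spread, possibly technical.

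Values are log2 expression units, on which a difference of 1.00 is a 2-fold change. The median value of an array lay at 3.80 to 3.88 for the 7 arrays of ISP cells and at 6.03 to 6.13 for the 12 others; levels of ISP cells are therefore set against no other population. The labels were checked first. Rptor was lower on Rptor-/- arrays by limma in ISP cells (-0.24, SE 0.08, adjusted p = 0.0384), DN3a cells (-0.58, SE 0.08, adjusted p = 0.000598) and γδ T cells (-0.30, SE 0.08, adjusted p = 0.0489), with 1 tie at 6.34 in ISP cells as the only contact between genotypes. The position of this probe set relative to the deleted part of Rptor was not given, which limits the check. Cd8a lay between 11.35 and 11.40 on Rptor-/- and between 11.21 and 11.48 on WT ISP arrays. Il2ra, the gene of CD25, lay between 12.80 and 12.93 on Rptor-/- and between 12.53 and 12.64 on WT DN3a arrays. Sox13, a γδ lineage factor, lay between 10.49 and 10.75 on Rptor-/- and between 10.58 and 11.06 on WT γδ arrays, while the γδ receptor constant genes had no probe set of their own. For contrast, Il2ra lay between 9.13 and 9.53 on Rptor-/- and between 9.05 and 9.15 on WT γδ arrays. Sox13 lay between 8.44 and 8.56 on Rptor-/- and between 7.93 and 8.05 on WT DN3a arrays.

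MHC class I molecules show the inside of a cell to CD8+ T cells and natural killer cells. The proteasome cuts proteins into peptides, the transporter formed by Tap1 and Tap2 carries these into the endoplasmic reticulum, and there they are loaded onto a heavy chain paired with β2-microglobulin. Transcription of the heavy chains, B2m and the transporter is driven by Nlrc5 through an enhanceosome of RFX, CREB/ATF and NF-Y proteins, by NF-κB, and by interferon through IRF and STAT proteins. Developing CD8 T cells are selected on class I of the thymic stroma, while cortical thymocytes carry little class I themselves. Class Ib heavy chains of the T region bind more specialised receptors.

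Promoter windows from RefSeq (GRCm38.p6), 250 bases before to 50 bases after the start, were at hand for 6 of the 10 genes, and those of the 4 that also had expression values are printed, which are a classical heavy chain, the Qa-1 chain, the light chain and a transporter subunit. Capitals mark matches, searched on both strands, to the letters GAANNGAAA and GAAANNGAA (interferon-stimulated elements), GGGATTCCC (κB), ATTGG (read CCAAT on the other strand, the NF-Y box) and TGACGC or TGACGT (the core of the X2 box). The windows are chr17:34000298-34000597 on the minus strand for H2-K1, the first of 2 in the table, chr17:36032652-36032951 on the minus strand for H2-T23, chr2:122147437-122147736 on the plus strand for B2m and chr17:34187306-34187605 on the plus strand for Tap1.
H2-K1: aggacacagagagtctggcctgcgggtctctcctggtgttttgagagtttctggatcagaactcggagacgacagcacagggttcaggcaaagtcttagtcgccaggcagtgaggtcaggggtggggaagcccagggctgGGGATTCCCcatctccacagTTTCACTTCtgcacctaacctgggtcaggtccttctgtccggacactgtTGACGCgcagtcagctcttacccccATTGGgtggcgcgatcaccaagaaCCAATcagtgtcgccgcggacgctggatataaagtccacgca
H2-T23: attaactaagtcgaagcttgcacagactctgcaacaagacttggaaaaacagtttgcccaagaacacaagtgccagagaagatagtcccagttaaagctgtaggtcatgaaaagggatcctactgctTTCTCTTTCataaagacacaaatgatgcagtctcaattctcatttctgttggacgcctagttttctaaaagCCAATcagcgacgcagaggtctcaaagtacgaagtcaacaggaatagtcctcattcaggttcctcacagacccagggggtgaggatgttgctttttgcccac
B2m: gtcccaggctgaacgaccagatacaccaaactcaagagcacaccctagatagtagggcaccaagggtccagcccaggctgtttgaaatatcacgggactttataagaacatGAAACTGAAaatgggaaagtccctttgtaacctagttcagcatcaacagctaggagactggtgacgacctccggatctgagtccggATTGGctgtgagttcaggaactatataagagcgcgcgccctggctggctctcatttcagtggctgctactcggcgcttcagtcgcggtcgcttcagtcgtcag
Tap1: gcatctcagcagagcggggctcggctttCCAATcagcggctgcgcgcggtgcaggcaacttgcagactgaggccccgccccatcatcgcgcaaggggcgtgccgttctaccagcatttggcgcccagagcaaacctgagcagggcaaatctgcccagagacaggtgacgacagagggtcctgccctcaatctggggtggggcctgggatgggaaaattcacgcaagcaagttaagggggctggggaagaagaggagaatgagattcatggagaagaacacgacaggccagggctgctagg

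The H2-K1 window held the κB letters at -110, the GAANNGAAA element at -90 on the minus strand, TGACGC at -41 and the CCAAT box at -16 and, on the minus strand, at 9, all counted from the start. GAAANNGAA lay at -123 on the minus strand with a CCAAT box at -52 in H2-T23, and at -139 with a CCAAT box at -53 in B2m. Tap1 held only a CCAAT box, at -222. No matches overlapped. Among all 32851 windows of the same length, 7.52% held GAANNGAAA, 8.56% GAAANNGAA, 0.353% GGGATTCCC, 37.4% the CCAAT box, 7.4% TGACGC and 7.51% TGACGT. The windows of H2-D1 and H2-T22 held 5 matches each; no window was given for H2-T10, H2-T24, Tap2 and Nlrc5, so none was searched. A match describes letters in these windows and is not a measured site.

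On Rptor-/- against WT arrays, 5 of the 8 genes were higher and 1 lower in ISP cells, 5 were higher in γδ T cells, and 0 passed the test in DN3a cells. In ISP cells H2-T10, H2-T23, H2-T24, Tap1 and Nlrc5 rose and H2-K1 fell by limma (adjusted p under 0.05 over 22180 genes), while B2m (0.21) and Tap2 (-0.15) did not pass. For γδ T cells H2-K1, H2-T10, H2-T24, Tap1 and Nlrc5 were higher on Rptor-/- arrays, none was lower, and H2-T23, B2m and Tap2 did not pass. In DN3a cells 0 of 8 passed by limma, and 8 of 8 had a positive difference and an unadjusted p under 0.05. The share of all genes with an unadjusted p under 0.05 was not counted, here or for the lists below. The medians of the 8 differences were 0.39 in ISP, 0.35 in DN3a and 0.40 in γδ cells, where the median of all genes was -0.00, 0.01 and 0.00. With each array centred on its own median 3 of 8 genes passed in DN3a cells, in a fit of the ISP arrays alone 4 of 8 passed in ISP cells, and in a fit of the γδ arrays alone 2 of 8 passed in γδ T cells.

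These counts stand against the share of all genes called. The set and the lists below were chosen with earlier results of these data known, so such comparisons are descriptions and no test. In ISP cells 5.87% of genes were higher and 6.57% lower. In DN3a cells the shares were 0.712% higher and 0.271% lower, and in γδ T cells 1.77% higher and 1.28% lower. Every Rptor-/- array lay above every WT array for 6 of the 8 genes in ISP cells, 8 of 8 in DN3a cells and 5 of 8 in γδ T cells, against 7.75%, 10.4% and 12.2% of all genes.

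Averaged over the 8 genes as differences from the WT mean of the same population, Rptor-/- arrays stood at 0.36, 0.32 and 0.47 and WT arrays at 0.02, 0.06, -0.13 and 0.05 in ISP cells. The DN3a arrays stood at 0.46, 0.34 and 0.37 for Rptor-/- and 0.07, 0.04 and -0.11 for WT, and the γδ arrays at 0.54, 0.39 and 0.33 for Rptor-/- and 0.06, 0.02 and -0.08 for WT. On this average no Rptor-/- array reached down to a WT array of its population. The ISP averages take in unlike differences, with H2-T10 at 1.51 and H2-K1 and Tap2 at -0.37 and -0.15.

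**Figure D1:**
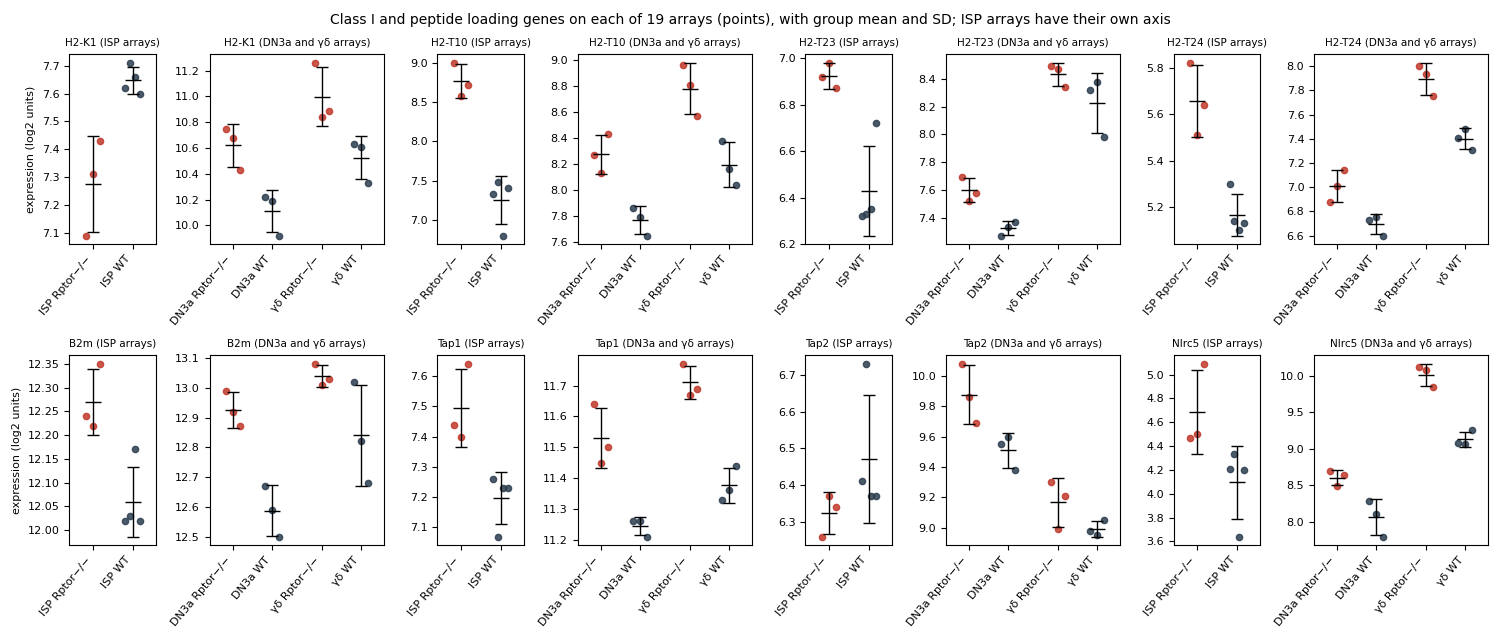
Expression in log2 units on each array (points) with the group mean (bar) and SD (whiskers), Rptor-/- in red left of WT in dark blue, for the 8 measured genes; ISP arrays have their own vertical axis and axes do not start at 0. In ISP cells the H2-T10 points lie between 8.58 and 9.0 on Rptor-/- arrays and between 6.80 and 7.48 on WT arrays, while H2-K1 lies lower on the Rptor-/- arrays.

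H2-K1, the classical heavy chain measured here, moved in opposite directions. In ISP cells it read 7.09, 7.31 and 7.43 on Rptor-/- arrays, against 7.62, 7.71, 7.66 and 7.60 on WT arrays, every Rptor-/- value below every WT value (-0.37, SE 0.11, limma adjusted p = 0.0373). In DN3a cells it read 10.75, 10.68 and 10.43 on Rptor-/- arrays, against 10.22, 10.19 and 9.92 on WT arrays, a difference of 0.51 (SE 0.12) that narrowly missed the threshold (limma adjusted p = 0.0524). It passed with centring, quantile normalization, a filter on dim genes, trend and robust estimation, or a replicate block (limma adjusted p = 0.0114 to 0.0411). The γδ arrays read 11.26, 10.84 and 10.89 for Rptor-/-, against 10.63, 10.61 and 10.33 for WT (0.47, SE 0.12, limma adjusted p = 0.0409), again without overlap and now with Rptor-/- above.

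The opposite directions were tested as differences of genotype effects. The H2-K1 effect in ISP cells was lower than in DN3a cells by limma (-0.88, SE 0.17, adjusted p = 0.00301) and lower than in γδ T cells (-0.84, SE 0.17, adjusted p = 0.00504). Both held with each of the 13 arrays left out in turn. Over all genes, 7.01% passed the first of these tests and 5.78% the second. They set differences made within ISP arrays against differences made on arrays of the other scale. The fall in ISP cells by itself passed only without Rptor-/- array 3 (-0.45) among the 7 fits with 1 array left out; it ran from -0.45 to -0.28, the smallest without Rptor-/- array 1. The γδ call was kept without Rptor-/- array 2 (0.55) and lost without Rptor-/- array 1 (0.34) or 3 (0.53) or WT array 1 (0.52), 2 (0.51) or 3 (0.38). In DN3a cells H2-K1 passed without Rptor-/- array 3 (0.60).

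Among the T-region chains, H2-T10 had the largest difference of the set in ISP cells. T10 and the closely related T22 are ligands of some mouse γδ T cell receptors, although the gene is a pseudogene in the C57BL/6J annotation. It read 9.0, 8.58 and 8.72 on Rptor-/- ISP arrays, against 7.33, 7.48, 6.80 and 7.40 on WT arrays. This is 2.85-fold higher with a gap of more than 1 log2 unit between the groups (1.51, SE 0.14, limma adjusted p = 1.27e-06). DN3a arrays read 8.27, 8.13 and 8.43 for Rptor-/-, against 7.86, 7.79 and 7.65 for WT, without overlap but short of the threshold (0.51, SE 0.15, limma adjusted p = 0.148). Values in γδ T cells were 8.96, 8.81 and 8.57 on Rptor-/- arrays, against 8.38, 8.16 and 8.04 on WT arrays (0.59, SE 0.15, limma adjusted p = 0.0428), also without overlap.

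The H2-T10 effect was larger in ISP cells than in DN3a cells (1.00, SE 0.21, limma adjusted p = 0.00642) and than in γδ T cells (0.93, SE 0.21, limma adjusted p = 0.0124), and both tests held with each of the 13 arrays left out. Both set differences within ISP arrays against differences on arrays of the other scale. A larger effect cannot be told apart from that difference of scale, which leaving out arrays does not address. The ISP rise also held in 7 of 7 such fits, at 1.36 to 1.61. The γδ rise was kept without Rptor-/- array 3 or WT array 1 and lost without Rptor-/- array 1 (0.49) or 2 (0.57) or WT array 2 (0.57) or 3 (0.51).

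H2-T23 encodes the heavy chain of Qa-1, which presents leader peptides of other class I chains to CD94/NKG2 receptors. On ISP arrays it read 6.92, 6.98 and 6.87 for Rptor-/-, against 6.32, 6.33, 6.35 and 6.72 for WT, with WT array 4 closest to the Rptor-/- values (0.50, SE 0.10, limma adjusted p = 0.00214). On DN3a arrays it read 7.69, 7.52 and 7.58 for Rptor-/-, against 7.27, 7.33 and 7.37 for WT (0.27, SE 0.11, limma adjusted p = 0.352). The genotypes did not overlap in either population. They did in γδ T cells, at 8.49, 8.47 and 8.34 on Rptor-/- arrays, against 8.32, 8.38 and 7.98 on WT arrays (0.21, SE 0.11, limma adjusted p = 0.361), and the difference was 0.08 without WT array 3.

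H2-T24, a less studied class Ib chain gene of the same region, was higher in both ISP and γδ T cells. ISP arrays read 5.82, 5.51 and 5.64 for Rptor-/-, against 5.30, 5.14, 5.10 and 5.13 for WT (0.49, SE 0.09, limma adjusted p = 0.000735). For γδ T cells the values were 8.0, 7.94 and 7.75 on Rptor-/- arrays, against 7.41, 7.48 and 7.31 on WT arrays (0.49, SE 0.09, limma adjusted p = 0.00562). DN3a arrays read 6.88, 7.01 and 7.14 for Rptor-/-, against 6.73, 6.75 and 6.60 for WT, a smaller difference that did not pass (0.31, SE 0.09, limma adjusted p = 0.163). No population showed overlap for this gene. The calls held with each array left out in ISP cells for H2-T23 (0.46 to 0.59) and H2-T24 (0.41 to 0.56), and in γδ T cells for H2-T24 (0.44 to 0.57).

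B2m, the light chain shared by all class I molecules, had small differences that passed in no population as fitted here. It read 12.24, 12.22 and 12.35 on Rptor-/- ISP arrays, against 12.02, 12.03, 12.17 and 12.02 on WT arrays (0.21, SE 0.08, limma adjusted p = 0.0977). DN3a arrays read 12.99, 12.92 and 12.87 for Rptor-/-, against 12.67, 12.59 and 12.50 for WT (0.34, SE 0.08, limma adjusted p = 0.0563). Rptor-/- arrays lay above WT arrays without overlap in both. B2m passed in ISP cells with trend and robust estimation (limma adjusted p = 0.0252). In DN3a cells it passed under the same alternatives as H2-K1 (limma adjusted p = 0.00728 to 0.0424). On γδ arrays the values were 13.08, 13.01 and 13.03 for Rptor-/-, against 13.02, 12.82 and 12.68 for WT, where WT array 1 reached into the Rptor-/- range (0.20, SE 0.08, limma adjusted p = 0.231); the difference was 0.12 without WT array 3.

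The transporter subunits differed from each other in what passed. Tap1 read 7.44, 7.40 and 7.64 on Rptor-/- ISP arrays, against 7.26, 7.07, 7.23 and 7.23 on WT arrays (0.30, SE 0.07, limma adjusted p = 0.00999). On γδ arrays it read 11.77, 11.67 and 11.69 on Rptor-/- arrays, against 11.33, 11.36 and 11.44 on WT arrays (0.33, SE 0.08, limma adjusted p = 0.0247). DN3a arrays stood at 11.64, 11.45 and 11.50 for Rptor-/-, against 11.26, 11.26 and 11.21 for WT (0.29, SE 0.08, limma adjusted p = 0.107). The difference was close to 0.3 in each, without overlap. Without Rptor-/- array 3 the ISP call was lost (0.22), and the γδ call was kept in 1 of 6 fits, that without WT array 3, at 0.30 to 0.36 over the 6: leaving out any Rptor-/- array or WT array 1 or 2 ended it.

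Tap2 passed in no population. ISP arrays read 6.26, 6.37 and 6.34 for Rptor-/-, against 6.41, 6.73, 6.37 and 6.37 for WT, which overlap (-0.15, SE 0.10, limma adjusted p = 0.5). DN3a arrays read 10.08, 9.86 and 9.69 for Rptor-/-, against 9.55, 9.60 and 9.38 for WT, without overlap (0.37, SE 0.11, limma adjusted p = 0.144). The γδ arrays read 9.30, 8.99 and 9.21 on Rptor-/- arrays, against 8.98, 8.95 and 9.05 on WT arrays, which overlap again (0.17, SE 0.11, limma adjusted p = 0.465). The effect in ISP cells was below that in DN3a cells (-0.51, SE 0.15, limma adjusted p = 0.0436), a call lost in a fit of ISP and DN3a arrays alone (limma adjusted p = 0.0677). It too sets a difference on ISP arrays against one on arrays of the other scale. That difference passed in 3 of 13 fits with 1 array left out (without ISP WT array 3 or 4 or DN3a Rptor-/- array 3) and ran from -0.61 to -0.41; removing any other of the 13 ended the call.

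Nlrc5, the transactivator, had the largest γδ difference of the set. It read 10.11, 10.08 and 9.84 on Rptor-/- γδ arrays, against 9.08, 9.06 and 9.25 on WT arrays, which is 1.84-fold higher (0.88, SE 0.17, limma adjusted p = 0.0059; 0.83 to 0.97 and called with each of the 6 arrays left out). ISP arrays read 4.47, 4.50 and 5.09 for Rptor-/-, against 4.21, 4.33, 3.64 and 4.20 for WT (0.59, SE 0.16, limma adjusted p = 0.0168). The WT values lay near the median value of an ISP array, 3.80 to 3.88, so the signal there was low. The ISP groups did not overlap, but Rptor-/- array 3 and WT array 3 lay apart from the rest and the call was lost without either (0.39 and 0.44). DN3a arrays read 8.69, 8.49 and 8.64 for Rptor-/-, against 8.29, 8.11 and 7.80 for WT, without overlap (0.54, SE 0.17, limma adjusted p = 0.173). The Nlrc5 effect in γδ T cells minus that in DN3a cells was 0.34 (95% interval -0.17 to 0.84), which did not pass.

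Between γδ and DN3a cells 0 of 8 genotype effects differed by limma, and none had an unadjusted p under 0.05, where 0.6% of all genes passed. The differences of effects ran from -0.20 for Tap2 to 0.34 for Nlrc5. For H2-T23, H2-T24, B2m, Tap1 and Nlrc5 no test of ISP against another population passed either.

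**Figure D2:**
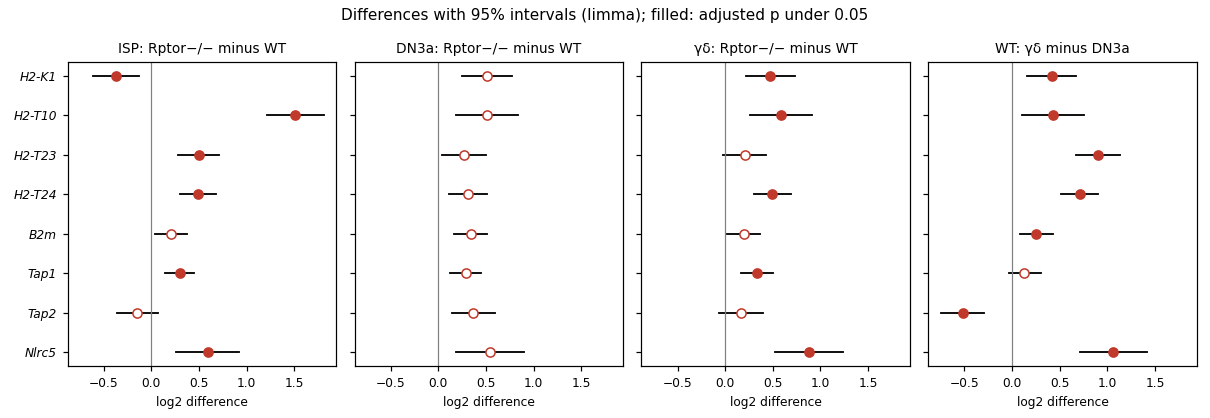
Differences in log2 units (points) with 95% intervals (lines) from limma for the 8 genes: Rptor-/- minus WT in ISP, DN3a and γδ T cells and, in the panel for WT cells, γδ minus DN3a; filled points passed at an adjusted p under 0.05. The 8 DN3a points are open and all right of 0, and H2-K1 lies left of 0 in ISP cells (-0.37) and right of it in γδ T cells (0.47).

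In WT mice, γδ T cells had more of most of these transcripts than DN3a cells, the stage before the γδ and αβ lineages part. By limma 6 of 8 genes were higher and Tap2 was lower, against 12.7% of all genes higher and 12.3% lower; Tap1 did not pass. The median of the 8 was 0.42, where that of all genes was -0.00. Every WT γδ array lay above every WT DN3a array for 7 of 8 genes, against 19.3% of all genes. This comparison shares its WT arrays with the genotype comparisons of both populations.

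Nlrc5 had the largest of these differences. It averaged 9.13 ± 0.10 in WT γδ T cells and 8.07 ± 0.24 in WT DN3a cells (SD, n = 3 each), 2.09-fold higher in γδ T cells (1.06, SE 0.17, limma adjusted p = 6.38e-05). H2-T23 averaged 8.23 ± 0.22 in WT γδ T cells and 7.33 ± 0.05 in WT DN3a cells (0.90, SE 0.11, limma adjusted p = 2.05e-06), and H2-T24 7.40 ± 0.08 in γδ and 6.70 ± 0.08 in DN3a cells (0.71, SE 0.09, limma adjusted p = 8.16e-06). These 3 calls and that of Tap2 held with each of the 6 WT arrays left out.

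The smaller differences were less firm. H2-K1 averaged 10.52 ± 0.16 in WT γδ T cells and 10.11 ± 0.17 in WT DN3a cells (0.42, SE 0.12, limma adjusted p = 0.0153) and lost its call without DN3a WT array 3 (0.32) or γδ WT array 1 (0.36) or 2 (0.37). H2-T10 averaged 8.19 ± 0.17 in γδ and 7.77 ± 0.11 in DN3a cells (0.43, SE 0.15, limma adjusted p = 0.0486) and kept its call only without γδ WT array 3; it lay at 0.47, 0.44 and 0.37 without DN3a WT array 1, 2 or 3 and at 0.33 and 0.45 without γδ WT array 1 or 2. B2m averaged 12.84 ± 0.17 in γδ and 12.59 ± 0.08 in DN3a cells (0.25, SE 0.08, limma adjusted p = 0.0291), a call lost without DN3a WT array 2 (0.25) or 3 (0.21) or γδ WT array 1 (0.16) or 2 (0.26).

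The transporter subunits went apart in this comparison. Tap2 averaged 8.99 ± 0.05 in WT γδ T cells and 9.51 ± 0.12 in WT DN3a cells (-0.52, SE 0.11, limma adjusted p = 0.00121), while Tap1 averaged 11.38 ± 0.06 in γδ and 11.24 ± 0.03 in DN3a cells (0.13, SE 0.08, limma adjusted p = 0.282). The 95% interval of the Tap1 difference is drawn in the plot of differences and holds 0.

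Across all 19 arrays, as differences from the WT mean of each population, members were correlated with the mean of the other members at Pearson's r of 0.89 for Tap1, 0.87 for Nlrc5, 0.85 for H2-T24, 0.81 for B2m, 0.69 for H2-T23, 0.59 for H2-T10, 0.32 for Tap2 and 0.23 for H2-K1. H2-K1 and Tap2, the 2 least like the others, were correlated with each other at 0.84, while H2-T10 and H2-T23 reached 0.84 between them and H2-K1 with H2-T10 stood at -0.22. These are descriptions over arrays that share genotype groups.

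Lists of the steps around the set had smaller medians between genotypes. For the immunoproteasome subunits and the PA28 activator, which make and trim class I peptides, 0 of 5 genes passed by limma in any comparison (1, 1 and 0 with an unadjusted p under 0.05 in ISP, DN3a and γδ cells), with medians of -0.10 in ISP, 0.14 in DN3a and 0.03 in γδ cells; between WT γδ and DN3a cells the median was -0.03 and 0 had an unadjusted p under 0.05. Psmb8 and Psmb9, neighbours of Tap1 and Tap2 in the class II region, lay at -0.12 and -0.10 in ISP cells, 0.13 and 0.20 in DN3a cells and -0.04 and 0.10 in γδ T cells.

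Of 18 other peptide loading factors, 1 rose and 4 fell in ISP cells (median -0.11), none passed in DN3a cells (0 by limma, 4 with an unadjusted p under 0.05; median 0.06), and 1 rose in γδ T cells (median 0.05). The riser was the same gene, Tapbpl, whose product TAPBPR edits the peptides that class I holds: 0.72 in ISP cells (SE 0.09, limma adjusted p = 1.14e-05) and 0.35 in γδ T cells (SE 0.09, limma adjusted p = 0.0425). Among those lower in ISP cells were the chaperone genes Calr (-0.50) and Hspa5 (-0.43) and the translocon subunit Sec61b (-0.55), which serve the folding and entry of proteins in the endoplasmic reticulum at large. WT γδ T cells had 6 of the 18 higher than WT DN3a cells and none lower (median 0.11), among them the peptidase Blmh (0.49), the loading complex oxidoreductase Pdia3 (0.46) and Tapbpl (0.43). Among all genes 5.87% rose and 6.57% fell in ISP cells, and 1.77% rose and 1.28% fell in γδ T cells. Between these WT cells 12.7% of all genes were higher and 12.3% lower.

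A list of other class I heavy chain genes had 23 measured, without H2-Q5, and most stayed below the threshold. In this list 1 rose in ISP cells (median 0.07), 2 rose in γδ T cells (median 0.02), and none fell. In DN3a cells 0 passed by limma (3 with an unadjusted p under 0.05, median -0.00). The shares of all genes that rose were 5.87% in ISP, 0.712% in DN3a and 1.77% in γδ cells. Mr1, which presents vitamin B metabolites to MAIT cells, rose by 0.50 in ISP cells (SE 0.08, limma adjusted p = 0.000263). In γδ T cells the rises within the list were in H2-Q4 (0.82, SE 0.15, limma adjusted p = 0.00448) and in H2-M3, which presents formylated bacterial peptides (0.47, SE 0.12, limma adjusted p = 0.0409). H2-Q5, outside the list, rose more in γδ T cells (1.83, SE 0.31, limma adjusted p = 0.00216). It was also higher in WT γδ than in WT DN3a cells (1.35, SE 0.31, limma adjusted p = 0.00244). Between WT γδ and DN3a cells 3 of the list were higher, H2-Q4 (0.60), Mr1 (0.43) and H2-M3 (0.36). There 3 were lower, Cd1d2 (-0.52), H2-M10.2 (-0.35) and H2-M10.5 (-0.34), and the list median was 0.04. H2-M10.2 averaged 5.04 in WT γδ and 5.39 in WT DN3a cells, and H2-M10.5 4.29 and 4.63. Both lay below the array medians of 6.03 to 6.13, so their signal was low. Of all genes 12.7% were higher and 12.3% lower. Class I genes are close copies of each other, so probe sets of this family may also read relatives.

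**Figure D3:**
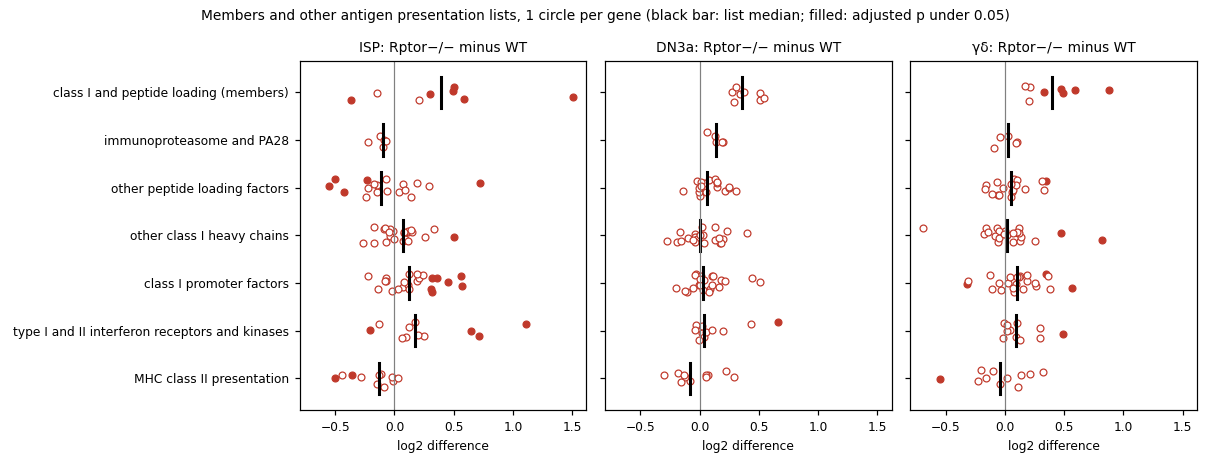
Rptor-/- minus WT in log2 units for each gene (circles) of the 8 class I and peptide loading genes and of 6 related lists, in ISP, DN3a and γδ T cells; black bars are list medians and filled circles passed at an adjusted p under 0.05. The medians of the 8 genes (0.39, 0.35 and 0.40) lie to the right of those of the related lists, which run from -0.13 to 0.17.

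Of 23 factors that act at class I promoters, 7 rose and none fell in ISP cells (median 0.12), Bcl11b (0.57), Rfxank (0.45) and Kat2b (0.32) among them; Rfxank is an RFX subunit of the enhanceosome and Bcl11b a T-lineage factor. In DN3a cells 0 of 23 passed by limma (5 with an unadjusted p under 0.05; median 0.03). Among γδ T cells the interferon regulatory factors Irf7 (0.57) and Irf2 (0.35) rose and the Polycomb methyltransferase Ezh2 fell (-0.32), with a median of 0.10. WT γδ T cells had 8 higher and 5 lower than WT DN3a cells (median 0.14). Irf7 (1.41), the NF-κB subunit Relb (1.35) and Irf2 (0.64) were among the higher, Kat2b (-0.64), Rfx5 (-0.41) and Nfya (-0.37) among the lower. Among all genes 5.87% rose and 6.57% fell in ISP cells, and 1.77% rose and 1.28% fell in γδ T cells. Between the WT cells 12.7% of all genes were higher and 12.3% lower.

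Of 11 interferon receptor and signalling genes, Ifngr1 (1.11), Usp18 (0.71) and Jak2 (0.65) rose and the phosphatase Ptpn2 fell (-0.21) in ISP cells (median 0.17). Usp18, an interferon-induced brake on the type I receptor, was the 1 gene higher in DN3a cells (0.66, SE 0.15, limma adjusted p = 0.0287; median 0.04), and Socs1, a brake on JAK kinases, the 1 in γδ T cells (0.49, SE 0.10, limma adjusted p = 0.0131; median 0.09). WT γδ T cells had 8 of 11 higher than WT DN3a cells (median 0.39), led by Usp18 (2.08), Ifngr2 (1.29) and Jak2 (0.70), where 12.7% of all genes were higher. Among all genes 5.87% rose and 6.57% fell in ISP cells. The shares that rose were 0.712% in DN3a and 1.77% in γδ cells.

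Of the MHC class II genes, which antigen-presenting cells carry along with class I, none rose between genotypes. In ISP cells 2 of 11 fell, H2-DMa (-0.36) and Ctss (-0.50), in DN3a cells 0 passed by limma (2 with an unadjusted p under 0.05) and in γδ T cells H2-Ob fell (-0.55), with medians of -0.13, -0.08 and -0.04. The mean of the list was 4.79 to 4.94 on Rptor-/- and 4.96 to 5.16 on WT ISP arrays, 6.94 to 7.08 on Rptor-/- and 7.01 to 7.08 on WT DN3a arrays, and 7.65 to 7.74 on Rptor-/- and 7.69 to 7.80 on WT γδ arrays. WT γδ T cells had 6 higher than WT DN3a cells and 1 lower (median 0.30), with Ctss at 3.66, H2-Oa at 2.62, H2-Ob at 0.97 and H2-DMb2 at -1.02. Between these WT cells 12.7% of all genes were higher and 12.3% lower. The shares of all genes that fell between genotypes were 6.57% in ISP and 1.28% in γδ cells.

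Markers of other cells were read on the same arrays, and fewer cells of a type cannot be told apart from less RNA per cell in sorted bulk samples. Of 9 B cell genes 0 passed by limma between genotypes (0, 1 and 3 with an unadjusted p under 0.05 in ISP, DN3a and γδ cells). Of 15 myeloid genes Cd68 fell in ISP cells (-0.64) and Lyz2 rose in DN3a cells (1.04), with list means of 5.85 to 5.86 on Rptor-/- and 5.80 to 5.91 on WT DN3a arrays. Of 11 dendritic cell genes Ly6d (0.58) and Batf3 (0.34) rose in ISP cells and Batf3 in γδ T cells (0.57). Of 13 stromal genes Pecam1 rose in ISP cells (0.39) and Epcam in DN3a cells (0.67). On WT ISP arrays Ly6d lay at 10.98 to 11.45 and Pecam1 at 7.18 to 7.37, and on WT DN3a arrays Epcam lay at 8.50 to 9.03. These levels were above the array medians. Batf3 lay at 3.52 to 3.91 on WT ISP arrays, near their medians. The dendritic genes Itgax and Xcr1 and the stromal gene Foxn1 passed in no genotype comparison. Of 3 erythroid genes 0 passed by limma (0, 0 and 1 with an unadjusted p under 0.05). Among all genes 5.87% rose and 6.57% fell in ISP cells, 0.712% and 0.271% in DN3a cells, and 1.77% and 1.28% in γδ cells.

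Markers of the sorted stages also moved with genotype. Of 10 DN3a genes, 6 rose and 1 fell in Rptor-/- ISP cells, with a list mean of 9.08 to 9.10 on Rptor-/- and 8.66 to 8.75 on WT arrays, 2 rose in DN3a cells, Dtx1 (1.38) and Ptcra (0.68), and Dtx1 rose in γδ T cells (0.57). Of 7 ISP genes, Ptcra (0.63) and Cd3e (0.22) rose and Cd24a (-0.51) fell in ISP cells, Ptcra rose in DN3a cells, and 4 fell in γδ T cells, with a list mean of 8.87 to 9.01 on Rptor-/- and 9.35 to 9.44 on WT arrays. Of 7 γδ genes, Cd27 (0.83) and Cd3e rose and Id3 (-2.29) fell in ISP cells, Sox13 rose in DN3a cells (0.51) and Zbtb16 in γδ T cells (0.74). Cd6 of 6 mature αβ T cell genes rose in ISP cells (0.61) and Cd40lg in γδ T cells (0.53), and of 9 natural killer and innate lymphoid genes Il2rb rose (0.52) and Gzma fell (-0.37) in γδ T cells. The part of these genes, and of the other cell markers above, in the class I differences was not tested. Among all genes 5.87% rose and 6.57% fell in ISP cells, 0.712% and 0.271% in DN3a cells, and 1.77% and 1.28% in γδ cells.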

How the data were processed

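Per the labels' protocols, sorted cells were lysed and their RNA was amplified, biotin-labelled and hybridised. The deposited values are log2 expression values per probe set; RMA and Partek 6.6 are named in the submitters' processing notes. They were used as deposited. Array medians fell into 2 sets, treated as separate normalizations. Of 41345 probe sets 23521 had 1 gene symbol, 1814 several and 16010 were not named; symbols of 23328 were updated by Entrez ID through RefSeq (GRCm38.p6). A gene with several probe sets (1082 of 22180) took that with the highest mean. Group differences came from limma 3.58.1 (lmFit, eBayes; R 4.3.3), 1 model of 6 group means over 19 arrays, Benjamini-Hochberg over all genes, threshold 0.05; every adjusted p is limma's. The fit was tested on simulated data. Named genes were all members, Rptor, up to 3 genes per list, direction and comparison with the smallest p, and the 8 genes most correlated with the members. Members and the 18 lists (199 of 245 entries measured) were chosen with earlier results of these data known. Groups came from sample titles. Within-group correlations were 0.9933 to 0.9966 and no arrays were identical. The number of arrays limits precision. Alternatives were centring, quantile normalization, averaging probe sets, a filter on dim genes, trend and robust estimation, only arrays of the populations compared, a replicate block and leaving out each array. Figures used matplotlib 3.10.9 in Python 3.11.15.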

Additional observations from a re-analysis of the deposited data

Results flagged for a closer look

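In the WT ISP group, the only one of 4 arrays, 5 of 9 genes tested had 1 array set apart from the other 3 by Dixon's 95% criterion, which chance meets in about 1 of 20 groups. H2-T23 stood at 6.72 on array 4 (6.32 to 6.35 on the others) and B2m at 12.17 on array 3 (12.02 to 12.03). Tap1 stood at 7.07 on array 2 (7.23 to 7.26) and Tap2 at 6.73 on the same array (6.37 to 6.41). Rptor stood at 6.34 on array 3 (6.47 to 6.49). Array 2 was thus set apart for both Tap1 and Tap2, array 3 for both B2m and Rptor, and array 4 for H2-T23.

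By limma's test of the difference itself, 5 genotype effects differed between ISP and another population. All these tests set differences on ISP arrays against differences on arrays of the other scale. The H2-K1 effect was lower in ISP than in DN3a cells by 0.88 on the log2 scale (-0.88) and than in γδ T cells by 0.84 (-0.84). That of H2-T10 was higher in ISP than in DN3a cells (1.00) and than in γδ T cells (0.93). The Tap2 effect was lower in ISP than in DN3a cells (-0.51).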

How the results depend on the processing

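No genotype difference of a member and no difference between WT γδ and DN3a cells changed direction under any alternative. In DN3a cells 0 members passed as reported; 3 did with arrays centred on their medians (H2-K1, B2m and Tap1) and with trend and robust estimation, 2 with quantile normalization, 2 without the dimmest 25% of genes, 2 with the replicate block (H2-K1 and B2m), and 0 to 1 with an array left out. In γδ T cells 5 members passed and 2 (H2-T24 and Nlrc5) with only γδ arrays, where 345 genes passed in place of 677; leaving out an array gave 2 to 3. With only ISP arrays 4 members passed in place of 6 and 1313 genes in place of 2759; Tap1 (adjusted p = 0.0808) and Nlrc5 (adjusted p = 0.184) lost their calls. For WT γδ against DN3a, leaving out an array gave 4 to 7. With only DN3a arrays 144 genes passed in place of 218 and 0 members as before, and with only DN3a and γδ arrays B2m had an adjusted p of 0.0533 between WT cells. With only ISP and DN3a arrays the Tap2 difference of effects had one of 0.0677, and with trend and robust estimation B2m passed in ISP cells (0.0252). H2-T10 in γδ T cells had an adjusted p of 0.0637 with quantile normalization. Centring moved the share of called genes that were higher to 35.8% from 47.2% in ISP cells, 84% from 72.5% in DN3a cells and 74.3% from 58.1% in γδ T cells, and for the ISP effects to 21.5% from 41.2% (against DN3a) and 20.5% from 37.3% (against γδ). Differences of effects that had not passed changed sign: H2-T10, γδ minus DN3a (-0.01, quantile), Tap1, ISP minus DN3a (-0.08, centred), Nlrc5, ISP minus DN3a (-0.04 centred, -0.05 quantile), and B2m, ISP minus γδ (-0.07 centred, -0.00 with the replicate block). With an array left out the ranges that crossed 0 were -0.17 to 0.06 (H2-K1), -0.02 to 0.18 (H2-T10) and -0.19 to 0.01 (H2-T23) for γδ minus DN3a, -0.07 to 0.06 (Tap1) and -0.15 to 0.18 (Nlrc5) for ISP minus DN3a, and -0.09 to 0.07 (H2-T24), -0.08 to 0.09 (B2m) and -0.11 to 0.01 (Tap1) for ISP minus γδ. The cause of these changes was not tested. Replicate numbers were not used to pair the arrays, and whether they mark a pairing was not settled. Same-numbered deviations were correlated at -0.10 to 0.24. Every WT γδ array was most like the WT DN3a array of its number, which did not hold for every array between genotypes. The replicate block changed no other call of a member and gave 260 called genes for 218 in DN3a and 802 for 677 in γδ T cells. Leaving out arrays was run for the members only.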

Other observations

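The genes outside the set whose arrays were most like the mean of the 8 members (Pearson's r over 19 arrays, which share genotype groups) included interferon-inducible ones. Since they were chosen for this likeness, their genotype differences are a description, with no test. Plin2, a lipid droplet coat protein, had r = 0.92 and differences of 0.43, 0.43 and 0.39 between Rptor-/- and WT in ISP, DN3a and γδ cells. Ifih1, the RNA sensor MDA5, had r = 0.90 and differences of 0.36, 0.45 and 0.33, and Igtp, an interferon-inducible GTPase, r = 0.90 and 0.84, 0.75 and 0.50. Arrdc4, an arrestin-domain gene (r = 0.88), had 0.96, 0.73 and 0.89, and Tnfrsf18, the co-stimulatory receptor GITR (r = 0.88), 0.77, 0.50 and 0.56. Helz2 (r = 0.89), Treml2 (r = 0.87) and the RNA editing enzyme gene Adar (r = 0.87) followed. Between WT γδ and DN3a cells Plin2 (-0.82) and Ifih1 (-1.06) were lower, where the median of the members was 0.42. The rest were positive there: Helz2 (0.99), Tnfrsf18 (0.83), Treml2 (0.38) and Adar (0.37) passed by limma, and Igtp (0.24) and Arrdc4 (0.24) did not.

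Of 15 receptors that bind class I, and relatives of them, 5 rose and 2 fell in γδ T cells, 1 rose in ISP cells and 0 passed in DN3a cells by limma (1 with an unadjusted p under 0.05). Among all genes 5.87% rose in ISP cells, and 1.77% rose and 1.28% fell in γδ T cells. Klra5 of the Ly49 family rose by 3.14 (SE 0.20), the inhibitory receptor gene Lilrb4a by 2.56 (SE 0.18) and Klrd1, the CD94 chain that binds Qa-1, by 2.10 (SE 0.21). The effects in γδ T cells exceeded those in DN3a cells for Klra5 (3.39, limma adjusted p = 1.4e-06), Lilrb4a (2.34, limma adjusted p = 4.16e-05) and Klrd1 (2.14, limma adjusted p = 0.000572). Cd8b1 (-1.72) and Cd8a (-0.53), which the γδ gate selects against, fell, with Cd8b1 at 6.39 to 7.50 on Rptor-/- and 8.75 to 8.85 on WT γδ arrays. In WT mice 7 of 15 were higher in γδ than in DN3a cells, among them Btla (2.27), an inhibitory receptor for a TNF receptor family ligand rather than for class I, and Klrd1 (1.49). Between these WT cells 12.7% of all genes were higher and 12.3% lower. Of 3 measured class I-like ligands of natural killer cells, Ulbp1 rose in ISP cells (0.47) and was lower in WT γδ than in WT DN3a cells (-0.44).

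Of 120 measured genes that lie between H2-K1 and H2-T10 on chromosome 17 in RefSeq order and are not members, 5 rose and 18 fell in ISP cells, 0 passed in DN3a cells by limma (19 with an unadjusted p under 0.05), and 2 rose and 1 fell in γδ T cells, with medians of -0.03, 0.03 and 0.04. Among all genes 5.87% rose and 6.57% fell in ISP cells, and 1.77% rose and 1.28% fell in γδ T cells. In ISP cells the inducible heat shock genes Hspa1a and Hspa1b averaged 4.28 and 5.42 on Rptor-/- arrays, against 9.02 and 10.09 on WT arrays (-4.74, SE 0.58, and -4.67, SE 0.67), without overlap; they were named after their values were seen, and the copies are so alike that probe sets may read both. In γδ T cells the 2 that rose were H2-Q4 and H2-Q5 (1.83, SE 0.31).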
